A study of Homo sapiens with 4 samples.

Results

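Fibronectin, SPARC, biglycan, decorin, lumican, periostin, thrombospondin-1, TGFBI, fibrillin-1 and lysyl oxidase are secreted proteins of the extracellular matrix, many of them made by fibroblasts and other stromal cells. Their genes are FN1, SPARC, BGN, DCN, LUM, POSTN, THBS1, TGFBI, FBN1 and LOX. They were chosen by symbol, and for each symbol the entry with the highest mean count was taken. Each of the 10 symbols was named by 1 entry of the table, out of 62778 entries that name a gene. All 10 had a value in every library, and all 10 passed the filter on low counts that left 26167 entries to test.

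K562 is an established human erythroleukemia line. The cells of all 4 libraries overexpressed U2AF1 with the S34F mutation, a splicing factor mutant found in myeloid malignancies, so the controls carried it too. Total RNA depleted of ribosomal RNA was sequenced from 2 libraries of cells given DMSO and from 2 libraries of cells given SF1-8, a small molecule directed at the UHM domain of U2AF1, at 30 uM for 48 h. The question was which transcripts SF1-8 alters in these mutant cells. No source used here states that the 2 libraries of a group came from separate cultures, so the p-values measure only the spread between these libraries, which may be technical.

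The extracellular matrix is built of fibers, such as collagen, fibronectin and the fibrillin microfibrils, and of proteins that bind them. Matricellular proteins, among them SPARC, thrombospondin-1 and periostin, add little to the mechanical structure and instead modulate how cells attach to the matrix and respond to growth factors. Small leucine-rich proteoglycans, among them biglycan, decorin and lumican, bind collagen and regulate how its fibrils form. Lysyl oxidase links collagen and elastin chains covalently. Several of these genes are classical targets of TGF-beta signaling in stromal cells, and platelets and megakaryocytes are also known to hold thrombospondin-1 and SPARC.

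The total count was between 45522905 and 67554610 per library, with the lowest total in DMSO 1. DMSO 1 also stood apart in the number of entries with more than 1 FPKM (fragments scaled by the authors for transcript length and library depth), which was 17908 against 14819 to 15179 in the other 3 libraries. The erythroid genes that define K562 were present in every library, with a summed level of 338 to 346 FPKM with DMSO and 310 to 335 FPKM with SF1-8 over 8 entries. GATA1, the erythroid transcription factor, lay between 75.9 and 79.1 FPKM in the 4 libraries. Because an estimated count in this table is not shown to stand for 1 read (the commonest value above 0 was 4), no counting error was computed.

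The 10 genes were lower in the libraries with SF1-8, without exception, but none passed the test across all genes. The log2 fold change of SF1-8 against DMSO was below 0 for 10 of the 10, where 51.6% of all genes tested had a value below 0. For 10 of the 10, both SF1-8 libraries lay below both DMSO libraries, an order that 18.1% of all genes tested had. After Benjamini-Hochberg adjustment of edgeR's quasi-likelihood test, the adjusted p was 0.970 for every one of the 10, and 11 of the 26167 genes, or 0.0420%, passed at 0.05. By the unadjusted p at 0.05, 5 of the 10 were lower with SF1-8 (LUM, THBS1, DCN, FBN1 and BGN), against 2.54% of all genes tested. LUM and DCN passed the filter on low counts through the DMSO libraries alone, and of the other 8 genes 3 had an unadjusted p below 0.05. DESeq2, run as an alternative, gave 2 of the 10 an adjusted p below 0.05, LUM at 0.0395 and THBS1 at 0.0456. Over all the alternatives run, the adjusted p lay between 0.0395 and 0.9997 for LUM and between 0.0456 and 0.998 for THBS1. With 2 libraries against 2, an exact permutation test of a single gene cannot give a two-sided p below 0.3333, so none is given.

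The median log2 fold change of the 10 genes was −1.83, beside −0.01 over all genes tested. LUM was at 0 in both SF1-8 libraries, and with LUM set to its bound of −1.23, which is explained with its values, the median was −1.28. The genes comprised an abundant pair with small differences and 8 genes of low level with larger ones, a division made after the values were seen. FN1 and SPARC together held 84.4% and 88.8% of the summed FPKM of the 10 genes in DMSO 1 and DMSO 2, and 93.3% and 96.3% in SF1-8 1 and SF1-8 2. The summed level of the other 8 genes was 4.48 FPKM and 2.64 FPKM in DMSO 1 and DMSO 2 and 1.47 FPKM and 0.667 FPKM in SF1-8 1 and SF1-8 2. The sum was thus highest in DMSO 1 and lowest in SF1-8 2, and the libraries of 1 group also differed from each other. These are bulk libraries, in which fewer cells of a type and less RNA per cell cannot be told apart.

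**Figure D1:**
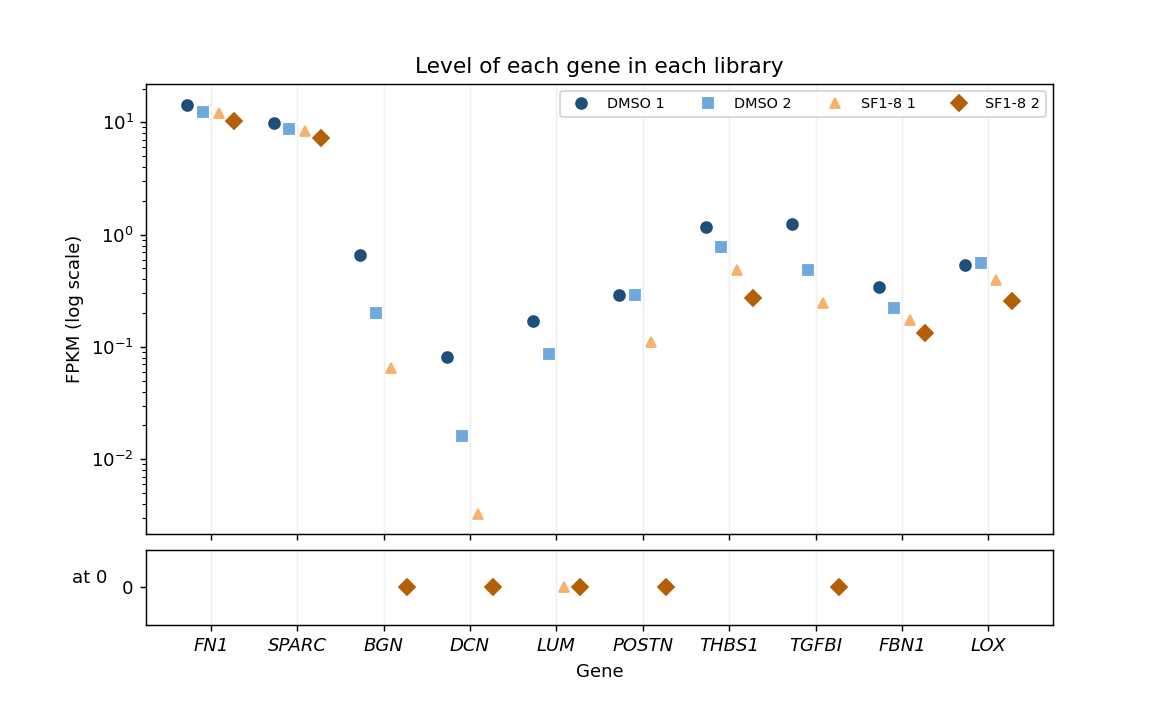
Level of each of the 10 genes in each library, in FPKM on a log axis, with libraries at 0 shown in the lower strip. FN1 and SPARC lie near 10 FPKM in all 4 libraries, the other 8 at 1.23 FPKM or less, and 5 genes are at 0 in SF1-8 2.

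Promoter sequences of RefSeq were found for 8 of the 10 genes, and none for DCN and LUM. Each window runs from 250 bases before the transcription start to 50 bases after it. Shown here are the bases upstream of the first annotated exon for FN1, the most abundant of the 10, for THBS1, whose libraries were separated without a 0, and for POSTN, which was at 0 in SF1-8 2 alone. They are read 5′ to 3′ on the strand of the gene in build GRCh38.p14, at chr2:215436173-215436318 (minus), chr15:39580829-39581078 (plus) and chr13:37598845-37599018 (minus), and capitals mark matches to any of the 5 motifs described after them.
FN1: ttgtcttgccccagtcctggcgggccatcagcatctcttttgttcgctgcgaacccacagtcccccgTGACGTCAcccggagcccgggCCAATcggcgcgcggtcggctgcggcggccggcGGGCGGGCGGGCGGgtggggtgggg
THBS1: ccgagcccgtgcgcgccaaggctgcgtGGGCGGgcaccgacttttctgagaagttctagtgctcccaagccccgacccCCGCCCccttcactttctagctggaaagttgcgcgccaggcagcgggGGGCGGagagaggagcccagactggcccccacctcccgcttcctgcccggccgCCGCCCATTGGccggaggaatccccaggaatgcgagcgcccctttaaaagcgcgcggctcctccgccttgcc
POSTN: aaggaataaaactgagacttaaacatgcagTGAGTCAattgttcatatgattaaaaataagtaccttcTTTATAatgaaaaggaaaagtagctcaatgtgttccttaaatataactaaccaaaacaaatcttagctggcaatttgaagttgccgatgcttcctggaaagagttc

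The upstream bases of FN1 and THBS1 are rich in G and C, at 74.0% and 69.6%, and those of POSTN are not, at 32.2%. The motifs searched on both strands of the full windows were the cAMP response element TGACGTCA, the AP-1 site TGANTCA, the GC box GGGCGG, the CCAAT box CCAAT and the TATA box TATAAA. The cAMP response element was present in FN1 alone, and in 1.85% of all 35116 windows. The AP-1 site and the TATA box letters were each present in POSTN alone, and in 7.71% and 11.5% of all windows. The GC box was present in FN1, BGN, THBS1, TGFBI and LOX, which is 5 of the 8 windows, against 44.95% of all windows. The CCAAT box was present in FN1, THBS1 and LOX, or 3 of 8, against 34.6% of all windows. No motif was thus held by all 8 windows. A match describes the letters only.

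FN1 encodes fibronectin, the adhesive glycoprotein of the matrix that cells grip through integrins. It lies on chromosome 2 at 215360440 to 215436073 on the minus strand (GRCh38 coordinates of the table), and the longest coding transcript in GENCODE version 29 has 46 exons. FN1 had 14.4 FPKM (DMSO 1) and 12.4 FPKM (DMSO 2) with DMSO, and 12.2 FPKM (SF1-8 1) and 10.3 FPKM (SF1-8 2) with SF1-8. DMSO 2 and SF1-8 1 were nearly level, and the 2 libraries of each group differed by more than that. The mean was 13.4 ± 1.41 FPKM with DMSO and 11.3 ± 1.35 FPKM with SF1-8 (SD, n = 2 each). The log2 fold change was −0.22 (SE 0.109), with an unadjusted p of 0.102 by edgeR's quasi-likelihood test.

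SPARC encodes osteonectin, a matricellular glycoprotein that binds collagen and calcium. It lies on chromosome 5 at 151661096 to 151686975, minus strand, with 10 exons in the longest coding transcript. Its level was 9.83 FPKM and 8.64 FPKM in DMSO 1 and DMSO 2 and 8.30 FPKM and 7.22 FPKM in SF1-8 1 and SF1-8 2. The order of the libraries was that of FN1, with a similar size of difference. SPARC had a log2 fold change of −0.22 (SE 0.111), with an unadjusted p of 0.103 by edgeR's quasi-likelihood test.

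The 3 small leucine-rich proteoglycans among the 10 were BGN, DCN and LUM, all under 1 FPKM in every library. BGN, on chromosome X at 153494980 to 153509546 on the plus strand, encodes biglycan, which binds collagen and growth factors of the TGF-beta family. Its level was 0.656 FPKM (DMSO 1) and 0.199 FPKM (DMSO 2) with DMSO, and 0.0652 FPKM (SF1-8 1) and 0 (SF1-8 2) with SF1-8, from estimated counts of 92, 39, 14 and 0. The value in DMSO 1 was 3.13 times that in DMSO 2 in normalized counts, a wider ratio than the 2.89 between DMSO 2 and SF1-8 1. The log2 fold change of BGN was −3.54 (SE 1.34), with an unadjusted p of 0.0444 by edgeR's quasi-likelihood test.

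DCN encodes decorin, a regulator of collagen fibril thickness, and lies on chromosome 12 at 91140484 to 91182817 on the minus strand. LUM encodes lumican, of the same family, and lies next to it at 91102629 to 91111494 on the same strand, 28989 bases away. Estimated counts of DCN were 62 and 18 in the DMSO libraries and 4 and 0 in the SF1-8 libraries, or 0.0815, 0.0161, 0.00328 and 0 FPKM. DMSO 1 alone held 79.0% of the normalized counts of DCN over the 4 libraries. Its log2 fold change was −4.59 (SE 1.44), with an unadjusted p of 0.0231 by edgeR's quasi-likelihood test. Both SF1-8 counts of DCN lay below the floor of 12 estimated counts that is applied to LUM. The size of its fitted value is therefore not well determined.

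LUM had estimated counts of 27 in DMSO 1 and 19 in DMSO 2, or 0.170 and 0.0870 FPKM, and 0 in both SF1-8 libraries. It was the single gene of the 10 at 0 in SF1-8 1. Against a floor of 12 estimated counts per library, which is 3 of the commonest smallest value, LUM was at least 2.34-fold lower with SF1-8. Its unadjusted p was 0.00736 by edgeR's quasi-likelihood test, and its fitted log2 fold change depends on the prior count and is no bound. Because DCN and LUM passed the filter on low counts through the DMSO libraries alone, a lower value with SF1-8 is built into their being tested. The other 8 genes passed through 3 or 4 libraries, and 8 of these 8 were lower.

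**Figure D2:**
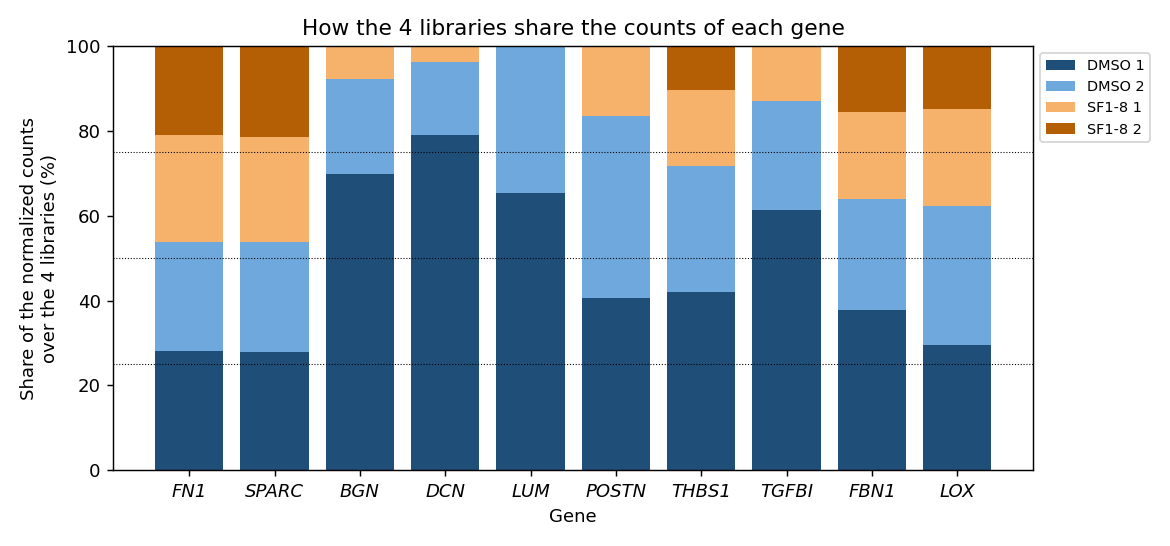
Share of each gene's normalized counts over the 4 libraries that each library holds, in percent. Segments of equal height would mean equal levels, and FN1 and SPARC are close to that, with between 21.1% and 28.1% in each library, whereas DMSO 1 holds 61.3% of TGFBI, 69.9% of BGN and 79.0% of DCN.

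THBS1 encodes thrombospondin-1, a matricellular protein that binds the receptors CD36 and CD47 and activates latent TGF-beta. It lies on chromosome 15 at 39581079 to 39599466 on the plus strand. THBS1 had 1.17 FPKM and 0.783 FPKM in DMSO 1 and DMSO 2 and 0.481 FPKM and 0.274 FPKM in SF1-8 1 and SF1-8 2. The groups did not overlap, with estimated counts of 625 and 586 against 372 and 205. Its log2 fold change was −1.33 (SE 0.338), with an unadjusted p of 0.0103 by edgeR's quasi-likelihood test. The mean normalized count was 2.52-fold lower with SF1-8.

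POSTN and TGFBI encode periostin and TGFBI, a pair of related adhesion proteins built of fasciclin domains and known as genes that TGF-beta induces. POSTN, on chromosome 13 at 37562583 to 37598844 on the minus strand, had 0.290 FPKM (DMSO 1) and 0.292 FPKM (DMSO 2) with DMSO, and 0.111 FPKM (SF1-8 1) and 0 (SF1-8 2) with SF1-8. Its DMSO libraries were nearly level and its SF1-8 libraries far apart, with estimated counts of 52 and 0. TGFBI, on chromosome 5 at 136028988 to 136063818 on the plus strand, had 1.23 FPKM and 0.485 FPKM in DMSO 1 and DMSO 2 and 0.246 FPKM and 0 in SF1-8 1 and SF1-8 2. The estimated counts of TGFBI were 553, 307, 162 and 0, so the SF1-8 libraries differed between 162 and 0. The unadjusted p was 0.139 for POSTN and 0.129 for TGFBI by edgeR's quasi-likelihood test, with log2 fold changes of −2.33 (SE 1.34) and −2.73 (SE 1.51).

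FBN1 encodes fibrillin-1, the main protein of the microfibrils on which elastic fibers form and which hold latent TGF-beta. It lies on chromosome 15 at 48408313 to 48645721 on the minus strand, with 66 exons in the longest coding transcript. FBN1 had 0.339 FPKM (DMSO 1) and 0.221 FPKM (DMSO 2) with DMSO, and 0.174 FPKM (SF1-8 1) and 0.134 FPKM (SF1-8 2) with SF1-8. DMSO 1 stood further from DMSO 2 than DMSO 2 did from SF1-8 1. FBN1 had a log2 fold change of −0.82 (SE 0.277), with an unadjusted p of 0.0300 by edgeR's quasi-likelihood test.

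LOX encodes lysyl oxidase and lies on chromosome 5 at 122063195 to 122078259 on the minus strand. Its level was 0.537 FPKM and 0.560 FPKM in DMSO 1 and DMSO 2 and 0.394 FPKM and 0.259 FPKM in SF1-8 1 and SF1-8 2. The DMSO libraries were close to each other and both lay above the SF1-8 libraries. The log2 fold change was −0.73 (SE 0.288), with an unadjusted p of 0.0516 by edgeR's quasi-likelihood test. GENCODE version 29 places protein-coding genes on the other strand over part of LOX (SRFBP1), BGN (HAUS7) and THBS1 (FSIP1), and the sources used here do not say whether counting used strand.

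For 7 of the 10 genes the normalized counts were in the order DMSO 1, DMSO 2, SF1-8 1, SF1-8 2 from highest to lowest, against 5.53% of all genes tested. The exceptions were POSTN and LOX, with DMSO 2 above DMSO 1, and LUM, which was tied at 0 in the SF1-8 libraries. SF1-8 2 was the lowest library for 9 of the 10 and tied for the lowest for LUM. 4 of the 10 genes (BGN, DCN, POSTN and TGFBI) were at 0 in SF1-8 2 and above 0 in the other 3 libraries, against 1.20% of all genes tested. Each of the 4 had a mean under 1 FPKM with DMSO, whereas the 1.20% is over genes of all levels. DCN passed the filter on low counts through the DMSO libraries alone, so low SF1-8 values are built into its being tested. This holds for both of these counts. Among all genes tested, 314 were at 0 in SF1-8 2 alone and 269 in SF1-8 1 alone. The number was 405 in DMSO 1 alone and 243 in DMSO 2 alone. DMSO 1 had the lowest total count, and among the other 3 libraries SF1-8 2 held the most zeros of this kind.

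The spread within a group was often as wide as the step between groups. In normalized counts, the ratio between the 2 DMSO libraries exceeded the ratio of DMSO 2 to SF1-8 1 for 5 genes: FN1, SPARC, BGN, TGFBI and FBN1. For THBS1 the step from DMSO 2 to SF1-8 1, at 1.64-fold, was wider than the 1.41-fold between the DMSO libraries. The SF1-8 libraries of THBS1 were further apart than that step, at 1.77-fold. Those of LOX were too, at 1.54-fold against a step of 1.43-fold. In DMSO 2 and SF1-8 1 alone, a pair chosen after the values were seen, the median log2 difference of the 10 genes was −0.84. That 10 of 10 were lower in this pair follows from both SF1-8 libraries lying below both DMSO libraries, and adds nothing to it. Without DMSO 1, 1 of the 10 had an unadjusted p below 0.05, and without SF1-8 1, 9 of the 10 had. Over the 10 genes the mean FPKM with DMSO and the log2 fold change had a Spearman rho of 0.76. It ranks LUM by its fitted value, which depends on the prior count, and FN1 and SPARC hold the top of both rankings. A trend among the remaining genes was not tested, and the genes share the same 4 libraries.

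**Figure D3:**
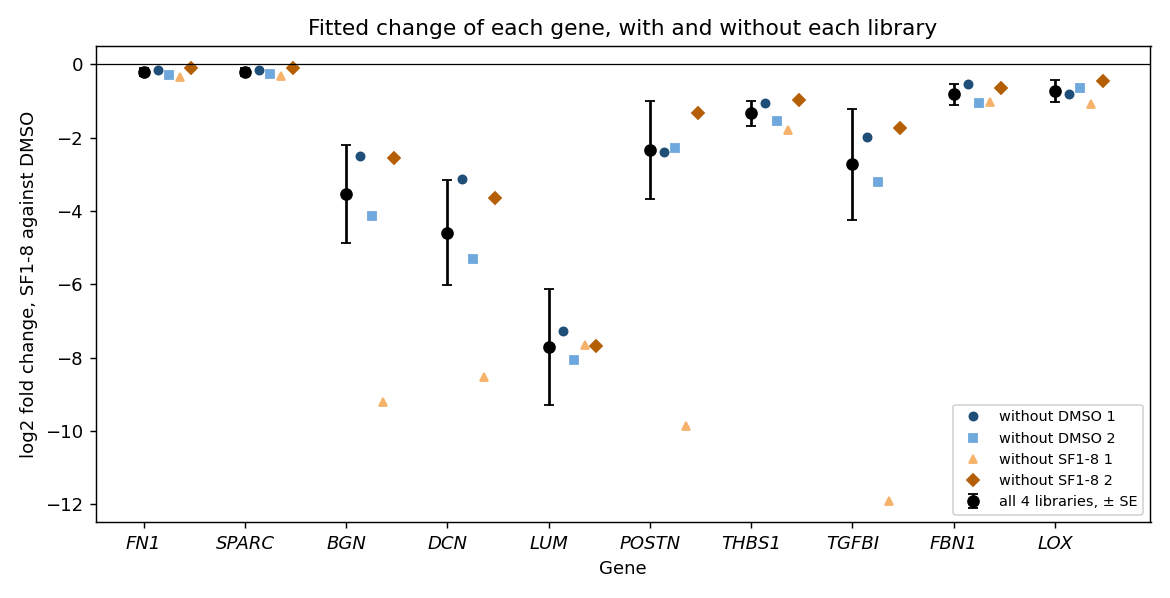
Fitted log2 fold change of SF1-8 against DMSO for each gene from all 4 libraries (black, ± SE) and after leaving out each library in turn (colored). All values lie below 0, those of TGFBI reach from −11.90 to −1.73 depending on the library left out, and the values of LUM and of genes with 1 SF1-8 library at 0 depend on the prior count.

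Related matrix genes were examined in 6 lists. Of 14 other matricellular genes tested, 11 were lower and 3 higher with SF1-8, their median log2 fold change was −0.71, and both SF1-8 libraries lay below both DMSO libraries for 7. Of the 14, 3 (CCN2, TNC and VTN) were lower at an unadjusted p of 0.05 and none passed the adjusted threshold by edgeR's quasi-likelihood test. CCN2, a connective tissue growth factor and TGF-beta target, had 1.60, 0.806, 0.230 and 0 FPKM in DMSO 1, DMSO 2, SF1-8 1 and SF1-8 2. TNC, which encodes tenascin-C, had 0.198, 0.0899, 0.0270 and 0 FPKM in the same order. VTN, which encodes vitronectin, had 0.927, 0.800, 0.576 and 0.481 FPKM, but its entry also holds SEBOX. CCN2, TNC and COMP, which encodes a cartilage thrombospondin, were at 0 in SF1-8 2 alone. So were PRELP among the small leucine-rich proteoglycans, ELN and FBLN5 among the elastic fiber genes, and LOXL1 and ADAMTS2 among the crosslinking and processing genes. Of all genes tested, whatever their level, 1.20% were at 0 in SF1-8 2 alone. Other tested genes of these lists were at 0 in a different library alone: SPOCK1 and CCN5 in SF1-8 1, FBLN1 in DMSO 2 and MFAP5 in DMSO 1. FBLN5, with estimated counts of 12, 31, 4 and 0, passed the filter on low counts through the DMSO libraries alone.

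Of the other small leucine-rich proteoglycans, 6 were tested and 6 were lower, with a median log2 fold change of −0.54. ASPN, which encodes asporin, alone had an unadjusted p below 0.05, at 0.0404 by edgeR's quasi-likelihood test, with 0.578 and 0.410 FPKM with DMSO and 0.248 and 0.257 FPKM with SF1-8. ASPN, OGN, OMD and ECM2 all overlap CENPP, a gene on the other strand, so their values may not be independent of it or of each other. Of 12 other genes of elastic fibers and microfibrils, 10 were lower and 2 higher, with a median of −0.24. LTBP2, which encodes a latent TGF-beta binding protein of microfibrils, had 0.332 and 0.129 FPKM with DMSO and 0.0666 and 0.0345 FPKM with SF1-8, with an unadjusted p of 0.0147 by edgeR's quasi-likelihood test.

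The enzymes and receptors around these proteins were near the median of all genes. Of 15 genes for crosslinking and collagen processing, 9 were lower and 6 higher, with a median log2 fold change of −0.03. PLOD2, a lysyl hydroxylase of collagen, alone had an unadjusted p below 0.05, at 0.0160 by edgeR's quasi-likelihood test, and had 0.263 and 0.129 FPKM with DMSO and 0.0340 and 0.0692 FPKM with SF1-8. Of 11 matrix receptors, 5 were lower and 6 higher, with a median of 0.03, and none had an unadjusted p below 0.05 in either direction. ITGB1, the beta-1 integrin chain shared by the main fibronectin receptors, had 34.7 and 21.3 FPKM with DMSO and 24.6 and 34.4 FPKM with SF1-8, and ITGAV had 7.49 and 7.92 FPKM with DMSO and 7.97 and 8.68 FPKM with SF1-8. The 2 DMSO libraries of ITGB1 thus differed as much as any pair across the groups.

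In the TGF-beta pathway, 6 of 12 genes were lower and 6 higher, with a median log2 fold change of −0.01. TGFB1, the ligand, lay between 34.9 and 37.0 FPKM in the 4 libraries, and SMAD3, its signal transducer, between 6.98 and 7.46 FPKM. Not all genes of the list were as steady. In DMSO 1, DMSO 2, SF1-8 1 and SF1-8 2, TGFBR1 had 6.68, 17.6, 17.0 and 17.9 FPKM. In the same order SMAD2 had 1.31, 2.08, 1.16 and 1.33 FPKM, and TGFBR2 had 0.177, 0.161, 0.126 and 0.105 FPKM.

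**Figure D4:**
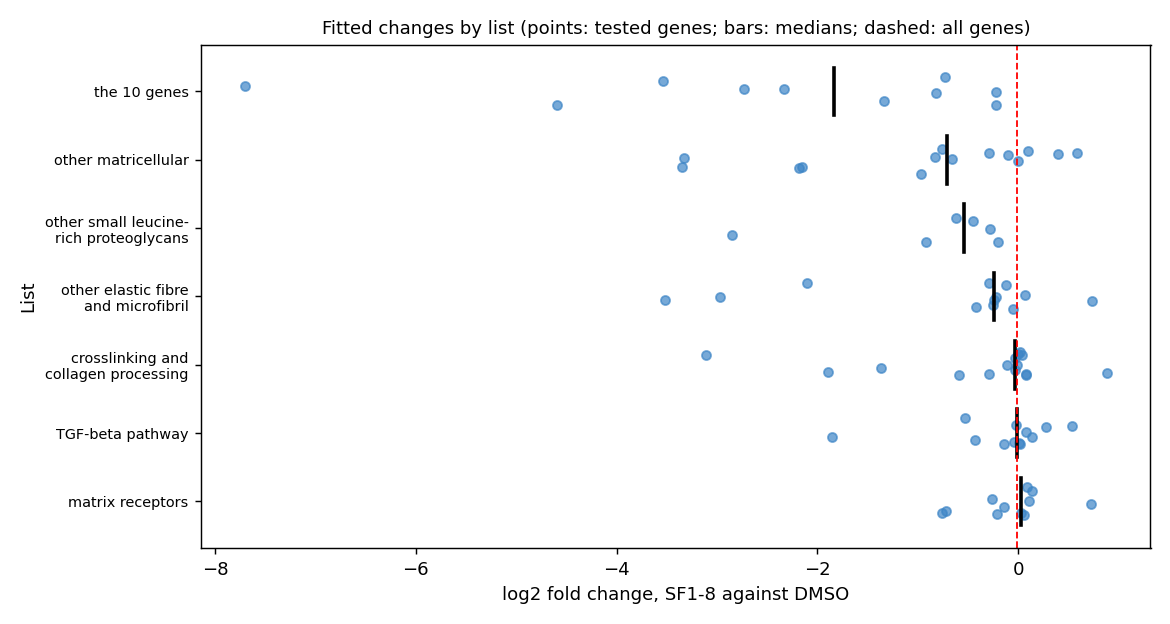
Fitted log2 fold change of SF1-8 against DMSO for the tested genes of the 10 and of 6 related lists, without the cell type markers (points, spread vertically for clarity), with the median of each list (bars) and of all genes tested (dashed line). The medians lie at −1.83 for the 10 genes, −0.71 and −0.54 for the other matricellular genes and small leucine-rich proteoglycans, and between −0.24 and 0.03 for the other 4 lists.

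Of 11489 other genes with a mean of at least 1 FPKM, those closest to the median profile of the 10 over the 4 libraries, by Euclidean distance of centered log2 normalized counts, included COL1A2 (distance 0.440), which encodes a chain of type I collagen. Farther from it were the entries named LIPE-AS1, RPS20P33, AC079949, AC002398, ZBTB37, CIBAR1, NECAB1 and MIR3689B, at distances of up to 0.777. COL1A2 was centered at 1.14, 0.41, −0.34 and −1.21 in DMSO 1, DMSO 2, SF1-8 1 and SF1-8 2 on that log2 scale, where the median of the 10 genes was 1.35, 0.59, −0.14 and −1.48.

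Among markers of fibroblasts, those lower with SF1-8 were PDGFRB and the collagen genes COL1A1, COL1A2, COL3A1 and COL6A3, which are themselves matrix genes. Of 8 fibroblast markers 7 were tested, 5 of them lower, with a median log2 fold change of −1.54, and 3 had an unadjusted p below 0.05 (COL1A2, COL3A1 and PDGFRB). PDGFRB, with estimated counts of 27, 12, 4 and 3, passed the filter on low counts through the DMSO libraries alone. A lower value with SF1-8 is thus built into its being tested. The summed level of the 8 fibroblast markers was 13.3 and 8.12 FPKM with DMSO and 6.14 and 4.39 FPKM with SF1-8. Of this, 3.22 to 3.67 FPKM in each library came from the entry of PDGFRA, which also holds FIP1L1. COL3A1, a fibrillar collagen of stroma, had 1.92 and 0.697 FPKM with DMSO and 0.319 and 0.0570 FPKM with SF1-8. The other 2 tested markers had log2 fold changes above 0, PDGFRA at 0.15 and THY1 at 0.15. THY1 had 0.132 and 0.0773 FPKM with DMSO and 0.191 and 0.0366 FPKM with SF1-8. FAP was not tested, with 0.0187 FPKM in DMSO 1 and 0 in the other 3 libraries.

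Smooth muscle markers summed to 6.76 and 4.91 FPKM with DMSO and 4.30 and 3.52 FPKM with SF1-8, with 3 of 5 lower. ACTA2, the smooth muscle actin, had 2.26, 1.03, 0.525 and 0.0302 FPKM in DMSO 1, DMSO 2, SF1-8 1 and SF1-8 2. TAGLN, whose entry also holds AP000892, followed that order, at 1.23, 1.15, 0.828 and 0.336 FPKM. DES and CNN1 did not, and CNN1 counts as lower at a log2 fold change of −0.06. MYH11 was higher in both SF1-8 libraries, at 0.109 and 0.115 FPKM, than with DMSO, at 0.0845 and 0.0875 FPKM. The endothelial markers CDH5, VWF and KDR were at 0 in all 4 libraries, as was the macrophage marker CD163. Epithelial markers summed to between 83.8 and 95.4 FPKM and macrophage markers to between 30.0 and 41.7 FPKM in the 4 libraries, the latter mostly from the entry that holds CD68 with its neighbors. The part of fibroblast RNA in the levels of the 10 genes was not tested.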

How the data were processed

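RNA-seq libraries of K562-U2AF1_S34F cells were grouped from the sample labels (DMSO, n = 2, and SF1-8, n = 2). The submitters' processing notes name cutadapt, FastQC, Bowtie2, HISAT2, StringTie and the build hg38, with no versions. The authors deposited FPKM values, normalized for length and depth, in which 0.0001 stands for 0 and was read as 0. The deposited counts are estimated counts without normalization, given as whole numbers. The 2095 entries that name no gene (0.358% to 0.421% of counts) were left out, and 2088 entries name more than 1 gene.

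Counts were filtered by filterByExpr (minimum count 10), scaled by library total and TMM factor (the normalized counts of the text) and fitted by edgeR's quasi-likelihood test without a replicate block, with Benjamini-Hochberg adjustment over 26167 genes (R 4.3.3, edgeR 4.0.16, limma 3.58.1, DESeq2 1.42.0). On simulated counts for SF1-8 against DMSO over 26167 genes, 60% of 200 genes changed 4-fold were recovered, and 1.64% of the calls were false. The simulation gave genes of like level the same spread, not each gene its own, and drew the 200 over all levels. The share recovered among genes of low level was not computed. The alternatives were DESeq2, other filters and scalings, limma on FPKM, a replicate block and leaving out each library.

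The genes and lists were chosen with earlier results of these data known. Named are the 10 genes, list genes with an unadjusted p below 0.05 (otherwise the 2 with the highest mean FPKM), the genes closest in profile, and marker genes. TGFB1, SMAD3, TGFBR1, TGFBR2, SMAD2, COL1A1, COL3A1, COL6A3, ACTA2, TAGLN, MYH11 and the genes at 0 in some libraries were named after their values were seen. Gene models are of GENCODE version 29 and promoters of RefSeq (GRCh38.p14). The values of 1 gene that the counts include are not reported here. Transcript values were not analysed here.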

Additional observations from a re-analysis of the deposited data

How the results depend on the processing

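All 10 genes were lower with SF1-8 under each alternative (7 of the 7 tested with counts divided by 4). With both SF1-8 libraries below both DMSO libraries for all 10, leaving out a library could hardly change the direction. The number of genes called over the whole table, 11, was 31 with no filter, 163 with DESeq2, 0 to 30 with 1 library left out, and 0 with limma on log2(FPKM + 1), on log2(FPKM + 0.1) and with no filter. At an unadjusted p below 0.05, 4.33% of all genes passed with edgeR, between 4.72% and 5.73% with limma, 3.71% with the replicate block and 4.82% without DMSO 1, the library whose absence left 0 calls. The number of the 10 genes with an unadjusted p below 0.05, 5, was 1 to 9 with 1 library left out (1 without DMSO 1, 9 without SF1-8 1), 3 with counts divided by 4 and 2 with limma without a filter. Their median log2 fold change, −1.83, lay between −4.73 (without SF1-8 1) and −1.16 with 1 library left out. With counts divided by 4, BGN, DCN and LUM were not tested, and the median of the remaining 7 genes was −0.83. The median of the same 7 genes with undivided counts was −0.82, that of FBN1. The median of the 10 was −0.84 in DMSO 2 and SF1-8 1 alone. With limma, where the pseudocount draws low genes toward 0, it was −0.23 on log2(FPKM + 1), with or without a filter, and −0.90 on log2(FPKM + 0.1). Other causes were not tested. With 1 library left out, the lone library of a group was assumed to vary like the other group.

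The replicate numbers pair the samples by number alone: over 26167 genes the deviations of same-numbered libraries had r = 0.02. With the number as a block, 0 genes were called, 7 of the 10 had an unadjusted p below 0.05 and their median was −2.27.

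Levels under 1 FPKM and groups of 2 libraries limit the precision of 8 of the 10 genes.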
